A study of Homo sapiens with 72 samples.

Results

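The 10 genes described here encode actins and proteins that bind actin filaments, and they are known targets of the transcription factor SRF. They were taken by name, from 60371 genes listed per library: ACTB, ACTG1, ACTA2, ACTN1, ACTN2, ACTN4, VCL, TAGLN, MYL9 and FLNA. The list was selected on measured values in part: ACTN2 was chosen by its level with homoharringtonine against its near absence in DMSO wells. The comparison of homoharringtonine with DMSO is therefore a description, with no test. Other comparisons of ACTN2 with DMSO reuse the DMSO wells that entered its choice. All 10 genes passed the filter on low counts in each comparison with DMSO.

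RNA was sequenced in bulk from 72 wells of U2OS, an established human osteosarcoma line, after 12 h of treatment. DMSO went to 18 wells, and 1 of 6 compounds went to each of the others at 100, 1000 or 10000 nM, in 3 wells for each combination. They were triptolide, an inhibitor of transcription initiation, homoharringtonine, an inhibitor of translation elongation, the kinase inhibitors nilotinib, pyrazolanthrone and MK-2206, and miglitol, an inhibitor of intestinal glucosidases. All wells, DMSO wells included, held the same cell line in DMEM with fetal bovine serum and antibiotics in 24-well plates, and whether replicate wells came from separate cultures is not given in the sources used here, so p-values measure the spread between wells.

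Deposited counts summed to between 70767 and 68296309 per well, with a median of 38369495. The 3 libraries under 10000000 counts, called shallow below, were replicate 2 of 100 nM triptolide with 70767 counts, DMSO replicate 10 with 460014, and replicate 1 of 1000 nM triptolide with 9628355. Of 10 osteoblast lineage markers, 6 had a median of at least 1 TPM in DMSO wells, led by SPARC and COL1A1, while SP7, COL1A2, BGLAP and IBSP did not. The summed level of the 10 markers ranged from 1787 to 3519 TPM in DMSO wells, from 3846 to 5123 TPM with 10000 nM triptolide and from 283 to 351 TPM with 10000 nM homoharringtonine. Of 4 blood markers none reached a median of 1 TPM in DMSO wells, and of 5 epithelial markers EPCAM and the keratins KRT8 and KRT18 did. The summed level of the 5 epithelial markers ranged from 540 to 726 TPM in DMSO wells, from 421 to 478 TPM with 10000 nM triptolide, and from 1232 to 1625 TPM over the 9 homoharringtonine wells, all above every DMSO well. The part of these marker changes in the values below was not tested.

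As background, SRF binds a short DNA element named the CArG box, and it activates cytoskeletal genes together with the coactivators MRTFA and MRTFB. Unpolymerized actin holds these coactivators out of the nucleus, so that filament assembly raises transcription of actin and its partners. Serum is a classical stimulus of this loop, and cultured mesenchymal cells such as osteosarcoma lines express the cytoplasmic actins at very high level.

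The CArG box is spelled CC, then 6 letters that are each A or T, then GG, and its reverse complement has the same form, so that both strands are read at once. RefSeq promoter sequences of GRCh38.p14 were held for 7 of the 10 genes, in 12 windows. ACTB, TAGLN and MYL9 were not among them. A box lay within the 250 bases before the start in 3 of the 12 windows, in ACTG1, FLNA and ACTN1, against 1.16% of all 35116 windows. The 3 stretches are shown because they are where the element that defines SRF targets was found, 5′ to 3′ on the strand of the gene with the box in capitals:
ACTG1, chr17:81512859-81512918, minus strand: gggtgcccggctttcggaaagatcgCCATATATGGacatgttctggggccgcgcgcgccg
FLNA, chrX:154374694-154374753, minus strand: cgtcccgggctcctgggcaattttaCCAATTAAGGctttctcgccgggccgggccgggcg
ACTN1, chr14:68977703-68977762, minus strand: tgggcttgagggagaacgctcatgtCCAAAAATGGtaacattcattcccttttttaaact
The box began 94 bases before the start in ACTG1 and in FLNA, and 171 bases before an alternative start in ACTN1, whose other 3 windows held none. The FLNA stretch overlapped an exon of a long noncoding RNA on the opposite strand, and the other 2 overlapped no annotated exon. No window of ACTA2, ACTN2, ACTN4 or VCL held these letters in the 250 bases before the start. Only the exact spelling was searched, so this says nothing about SRF at boxes with a changed letter or at sites outside the windows.

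On GRCh38 in GENCODE release 44 all 10 are protein-coding. The actins ACTB, ACTG1 and ACTA2 lie on the minus strand at chr7:5526409-5563902, chr17:81509413-81523847 and chr10:88935074-88991339. The alpha-actinins ACTN1, ACTN2 and ACTN4 lie at chr14:68874128-68979440 (minus), chr1:236664141-236764631 (plus) and chr19:38647649-38731589 (plus). VCL, TAGLN and MYL9 lie on the plus strand at chr10:73995193-74121363, chr11:117199370-117207464 and chr20:36541497-36551447, and FLNA lies on the minus strand at chrX:154348524-154374634.

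In DMSO wells the 10 genes spanned a wide range of levels, compared here as TPM, which accounts for gene length. ACTB, the cytoplasmic beta-actin, had 6387 TPM ± 836 (SD, n = 18) and was the gene of rank 6 among all genes. ACTG1, the cytoplasmic gamma-actin, had 2662 TPM ± 278, and FLNA, a filamin that crosslinks filaments, had 1533 TPM ± 199. These 3 genes were far above the rest. ACTN1 and ACTN4, the nonmuscle alpha-actinins that bundle filaments, had 447 TPM ± 51.7 and 241 TPM ± 36.1. TAGLN, the filament-binding protein transgelin, had 153 TPM ± 21.1, MYL9, a regulatory light chain of myosin, had 88.6 TPM ± 20.7, and VCL, the focal adhesion protein vinculin, had 53.7 TPM ± 4.88. The muscle members were near the detection limit: ACTA2, the smooth muscle actin, had 2.13 TPM ± 0.68, and ACTN2, the alpha-actinin of the sarcomere, had a median of 0.415 TPM. In the library of 460014 counts ACTN2 had 13.1 TPM from 4 counts. Along this order the DMSO wells overlapped between ACTN4 and TAGLN, between MYL9 and VCL, and between ACTA2 and ACTN2, and no other pair of neighbours overlapped.

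For comparisons between groups, counts were tested in edgeR with its quasi-likelihood test, and a gene was called at an adjusted p-value under 0.05 (Benjamini-Hochberg over all genes tested). Levels of one gene across groups are given as CPM, counts per 1000000 of the TMM-scaled library, and log2 fold changes carry their standard error (SE). TMM scaling centres most genes on no change, so a fold change is read against what most genes did. With triptolide this choice mattered. Scaling to the 13 mitochondrially encoded mRNAs shifted the median gene by -1.66, -2.47 and -2.76 (log2) at 100, 1000 and 10000 nM relative to TMM, library sizes alone by -0.34, -0.46 and -0.53, and the RLE size factors of DESeq2 by -0.04, 0.16 and 0.17. For the other compounds the mitochondrial scaling shifted it by between -0.70 and 0.45. Bulk RNA cannot tell fewer cells from less RNA per cell.

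With triptolide, the cytoskeletal genes rose relative to most other genes. Of the 10 genes, 8 rose at 100 nM, 9 at 1000 nM and 9 at 10000 nM, against 24.5%, 28.8% and 32.2% of all genes tested, and none fell at any dose by edgeR, by DESeq2 or at an unadjusted p-value under 0.05, where 32.3%, 38.6% and 39.7% of all genes fell. The counts at 100 and 1000 nM include ACTN2, which is a description because its DMSO wells entered its choice. Of the other 9 genes, only ACTG1 and ACTN1 at 100 nM and ACTA2 at 1000 nM were not called. With at least 10 counts required in every well, that of 70767 counts included, ACTG1 and ACTN1 fell at 100 nM. The median log2 fold change of the 10 genes was 1.10, 0.995 and 0.857, beside -0.16, -0.21 and -0.17 over all genes tested. Under the mitochondrial scaling the sign flipped: 1 of the 10 genes at 100 nM and 0 at the higher doses had a log2 fold change above 0, with values between -2.45 and 1.15. The median over all genes tested was then -1.82, -2.68 and -2.93, and all 10 genes stayed above it at each dose. All 3 wells lay above all 18 DMSO wells for 4, 8 and 9 of the 10 genes, where 9.44%, 21.8% and 28.7% of the 14357 genes with a mean of at least 1 CPM did. The shallow libraries are 1 well with 100 nM triptolide, 1 with 1000 nM triptolide and 1 DMSO well. Without them, the remaining wells lay above the remaining DMSO wells for 10, 8 and 9 of the 10 genes. The share of all genes was not counted for this setting, so nothing is read from these counts.

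**Figure D1:**
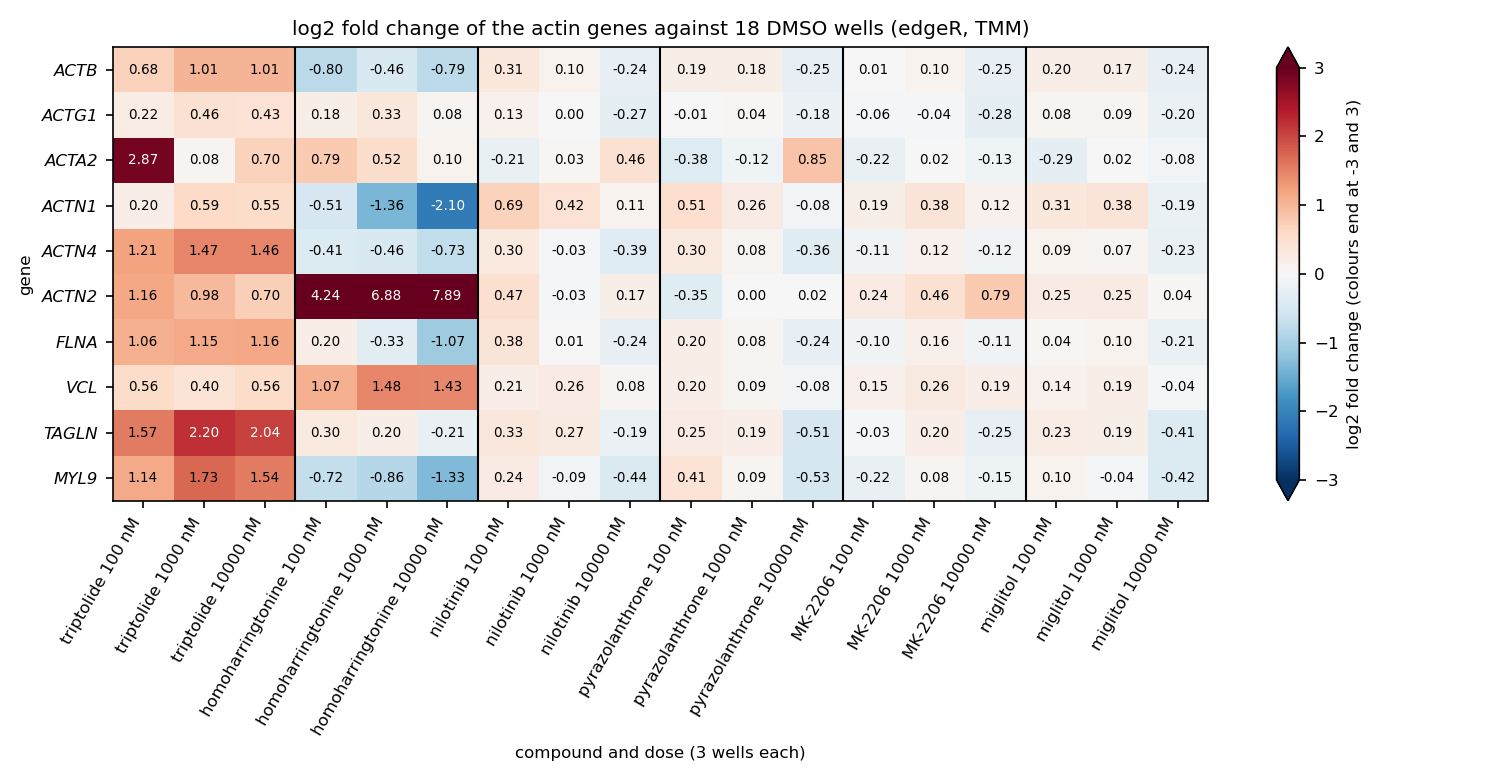
Log2 fold change against 18 DMSO wells (edgeR, TMM scaling) for the 10 genes (rows) in each compound and dose (columns, 3 wells each). Triptolide columns are positive throughout, from 0.08 to 2.87, and turn negative apart from ACTA2 at 100 nM when libraries are scaled to mitochondrial mRNAs, while the ACTN2 row stands out under homoharringtonine, from 4.24 to 7.89.

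The largest of these increases that held at all doses was that of TAGLN. TAGLN had between 65.6 and 124 CPM in DMSO wells (median 88.6), and it had 295, 169 and 275 CPM in the wells with 100 nM triptolide, 432, 468 and 352 CPM at 1000 nM and 358, 376 and 421 CPM at 10000 nM. The 9 treated wells all lay above the DMSO wells. The log2 fold change was 1.57 (SE 0.15) at 100 nM, 2.20 (SE 0.13) at 1000 nM and 2.04 (SE 0.12) at 10000 nM, the last with an adjusted p-value of 1.65e-13. Exons of PCSK7 on the opposite strand share 2233 of the 6550 exonic bases of TAGLN, and PCSK7 had a mean of 45.5 CPM in DMSO wells (SD 5.29) and 82.3 CPM at this dose (SD 9.70). The libraries were stranded, but the strand setting used in counting is not given in the sources used here. Whether reads of these 2 genes were kept apart where they overlap is therefore not known. A gene on the same strand known only by its identifier, ENSG00000280143, shares 36.2% of the distinct 50-base stretches of TAGLN transcripts, and it had 2.96 CPM ± 1.41 in DMSO wells and 6.39 CPM ± 0.17 at that dose.

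MYL9, which myosin needs for regulated contraction, followed. It had between 75.7 and 131 CPM in DMSO wells (median 96.8), 347, 390 and 256 CPM at 1000 nM triptolide and 278, 280 and 337 CPM at 10000 nM, with no overlap. Its log2 fold change was 1.14 (SE 0.16), 1.73 (SE 0.14) and 1.54 (SE 0.13) from the lowest to the highest dose, with an adjusted p-value of 1.42e-10 at 10000 nM. At 100 nM, the well of 70767 counts had 108 CPM from 9 counts and lay among the DMSO wells, and the other 2 wells had 217 and 256 CPM.

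The filament crosslinkers rose by similar amounts except for ACTN1. ACTN4 had between 375 and 525 CPM in DMSO wells (median 450). It had 1096, 831 and 1122 CPM at 100 nM triptolide, 1328, 1298 and 1143 CPM at 1000 nM and 1238, 1201 and 1413 CPM at 10000 nM, a log2 fold change of 1.46 (SE 0.10, adjusted p = 2.39e-12). FLNA had between 3214 and 4684 CPM in DMSO wells (median 3995). It had 9063, 6217 and 9197 CPM at 100 nM, 9479, 8608 and 8464 CPM at 1000 nM and 8802, 8615 and 10118 CPM at 10000 nM, a log2 fold change of 1.16 (SE 0.10, adjusted p = 8.44e-11). For both genes all 9 triptolide wells lay above every DMSO well. ACTN1 had between 865 and 1234 CPM in DMSO wells (median 1052), and 1543, 1456 and 1768 CPM at 10000 nM, a log2 fold change of 0.55 (SE 0.10, adjusted p = 2.31e-05). At 100 nM the change of ACTN1, 0.20 (SE 0.11), did not pass (adjusted p = 0.132), but without the shallow libraries it was 0.32 (adjusted p = 0.0355), and with at least 10 counts required in every well it was -0.44 (adjusted p = 6.63e-05). VCL, which links filaments to integrin adhesions, had between 168 and 223 CPM in DMSO wells (median 203) and 304, 298 and 316 CPM at 10000 nM, with a log2 fold change of 0.56 (SE 0.07, adjusted p = 4.37e-08) and no overlap.

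The 2 cytoplasmic actins share the job of building nonmuscle filaments, and ACTB had the higher fold change at each dose. ACTB had between 5299 and 9213 CPM in DMSO wells (median 7247). It had 12496, 9132 and 11682 CPM at 100 nM triptolide, 14139, 14444 and 14160 CPM at 1000 nM and 13752, 14512 and 15523 CPM at 10000 nM. At 100 nM its lowest well, that of 70767 counts, lay just inside the DMSO range, and the other 8 wells lay above it. Its log2 fold change was 0.68 (SE 0.13), 1.01 (SE 0.12) and 1.01 (SE 0.12), with an adjusted p-value of 3.44e-08 at the highest dose. ACTG1 had between 1715 and 2493 CPM in DMSO wells (median 2203), and 3027, 2941 and 3020 CPM at 10000 nM. Its log2 fold change was 0.43 (SE 0.09, adjusted p = 9.22e-05) there and 0.46 (SE 0.09) at 1000 nM. At 100 nM it was 0.22 (SE 0.10, adjusted p = 0.0798), 0.35 (adjusted p = 0.00345) without the shallow libraries, and -0.42 (adjusted p = 1.47e-06) with at least 10 counts required in every well. RSEM divides reads that fit several actin genes, and 5.51% of the distinct 50-base stretches of ACTB transcripts and 2.25% of those of ACTG1 occur in transcripts of other genes. Summed as 1 gene, ACTB and ACTG1 had log2 fold changes of 0.58, 0.90 and 0.89.

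The muscle members were low with triptolide and less regular. ACTA2 had 0 to 2.66 CPM in DMSO wells (median 1.93), the 0 being in the library of 460014 counts, where 3 counts would be 5.26 CPM. At 100 nM triptolide it had 15.9 and 13.4 CPM in the 2 deep wells, from 448 and 121 counts, and 0 in the well of 70767 counts, where 3 counts would be 36.1 CPM. The log2 fold change there was 2.87 (SE 0.23, adjusted p = 3.20e-10) and 2.93 without the shallow libraries. At the higher doses it had 1.42, 1.99 and 2.58 CPM and then 2.89, 2.85 and 3.99 CPM, with log2 fold changes of 0.08 (SE 0.28, adjusted p = 0.819) at 1000 nM and 0.70 (SE 0.24, adjusted p = 0.0101) at 10000 nM, the latter with an adjusted p-value of 0.103 without replicate 3. FAS lies on the opposite strand and shares 387 exonic bases with ACTA2. FAS had 8.11 CPM ± 2.08 in the 18 DMSO wells, 16.6 ± 6.55 in the 3 wells at 100 nM and 14.97 ± 0.59 at 10000 nM, and the antisense transcript ACTA2-AS1 stayed under 0.4 CPM in each of these wells. The part of FAS reads in the ACTA2 counts was not tested.

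ACTN2 stayed near 1 CPM in triptolide wells. It had 1.53 and 1.21 CPM in the 2 deep wells at 100 nM and 0 in the well of 70767 counts, 1.67, 0.81 and 1.24 CPM at 1000 nM, and 0.67, 0.91 and 1.54 CPM at 10000 nM. DMSO wells other than replicate 10 reached 0.90 CPM, and 3 of the 9 triptolide wells were below that. The log2 fold change was 1.16 (SE 0.40, adjusted p = 0.0159), 0.98 (SE 0.37, adjusted p = 0.0226) and 0.70 (SE 0.34, adjusted p = 0.0659). These calls rested on few counts, and on DMSO wells whose near absence of ACTN2 entered its choice, so they are a description. Those at 100 and 1000 nM are part of the counts of rising genes given above. Without the shallow libraries all 3 doses passed, with values between 0.75 and 1.23, whereas the adjusted p-value was 0.217 at 100 nM and 0.130 at 1000 nM without replicate 1, 0.0797 at 1000 nM without replicate 3, and 0.134 at 100 nM by DESeq2.

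**Figure D2:**
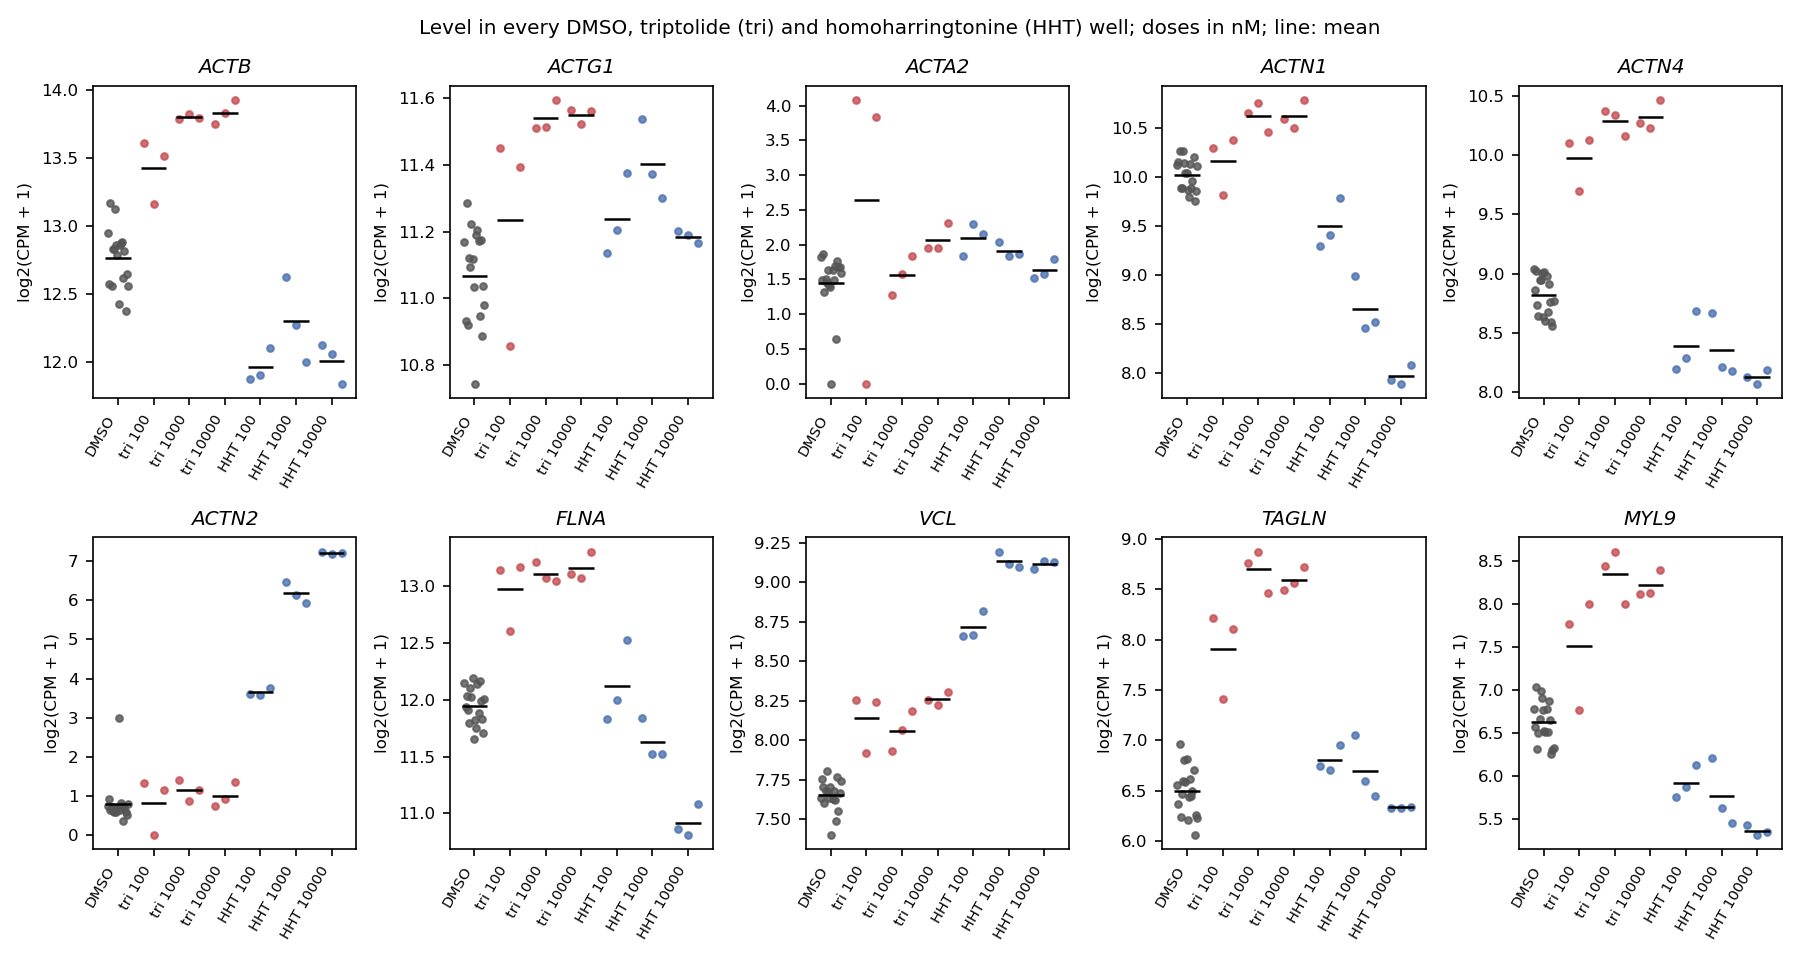
Level of each gene as log2(CPM + 1) in every DMSO, triptolide (tri) and homoharringtonine (HHT) well, with doses in nM, points for wells and a line for the mean. TAGLN, MYL9, ACTN4, FLNA and ACTB lie higher with triptolide and, apart from TAGLN, mostly at or below DMSO with homoharringtonine, and ACTN2 climbs with the dose of homoharringtonine to 145 to 150 CPM. The higher triptolide levels are relative to most genes. Under the mitochondrial scaling the log2 fold changes at 10000 nM were -0.78 to -2.37, with the median of all genes tested at -2.93.

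With homoharringtonine, the values below are the ones the choice of genes rested on, and they are described with no test. ACTN2 had a median of 0.62 CPM in DMSO wells, with the other wells between 0.29 CPM and the 7.01 CPM of DMSO replicate 10. It had 11.1, 10.99 and 12.5 CPM at 100 nM, 87.5, 68.6 and 60.1 CPM at 1000 nM, and 150, 145 and 147 CPM at 10000 nM. Each dose stood above the dose below it in every well, and all 9 wells stood above all DMSO wells. The log2 fold change was 4.24 (SE 0.21), 6.88 (SE 0.19) and 7.89 (SE 0.16), and without the shallow libraries it was 4.25, 6.91 and 7.91. The ACTN2 counts at 10000 nM were 7470, 5533 and 8184, and none of the distinct 50-base stretches of its transcripts occurred in transcripts of another gene. As TPM it reached between 88.6 and 98.6 (n = 3), within the range of MYL9 in DMSO wells.

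VCL was the only other member well above DMSO at each dose of homoharringtonine. It had 404, 405 and 450 CPM at 100 nM, 584, 552 and 546 CPM at 1000 nM and 542, 561 and 559 CPM at 10000 nM, all above the highest DMSO well. The log2 fold change was 1.07 (SE 0.07), 1.48 (SE 0.07) and 1.43 (SE 0.06). AP3M1 shares 1109 exonic bases with VCL on the opposite strand, and its level at 10000 nM, 85.1 CPM (SD 11.9, n = 3), was within the range of DMSO wells, 41.8 to 117 CPM.

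At the 2 higher doses ACTN1 stood lowest against DMSO. It had 631, 679 and 882 CPM at 100 nM, 508, 351 and 367 CPM at 1000 nM, and 242, 237 and 271 CPM at 10000 nM. These 2 doses lay below all DMSO wells, with log2 fold changes of -1.36 (SE 0.14) and -2.10 (SE 0.12) after -0.51 (SE 0.12) at 100 nM. MYL9 had log2 fold changes of -0.72 (SE 0.17), -0.86 (SE 0.18) and -1.33 (SE 0.16), and ended at 42.3, 38.8 and 39.9 CPM. FLNA was at 0.20 (SE 0.13), -0.33 (SE 0.12) and -1.07 (SE 0.11), and only its wells at 10000 nM, with 1863, 1792 and 2161 CPM, lay below all DMSO wells. ACTN4 had -0.41 (SE 0.13), -0.46 (SE 0.13) and -0.73 (SE 0.12), and ACTB had -0.80 (SE 0.14), -0.46 (SE 0.15) and -0.79 (SE 0.13). ACTG1, TAGLN and ACTA2 lay between -0.21 and 0.79, the highest being ACTA2 at 100 nM. For the record, as a description from which nothing is read, the edgeR threshold was passed above DMSO by 2, 2 and 1 of the 9 genes other than ACTN2 and below it by 4, 5 and 5, where 31.1%, 35% and 36.7% of all genes were above and 32.3%, 33.4% and 37.2% below. Under library sizes alone 4 of the 10 fold changes at 100 nM were above 0 in place of 6, and under the mitochondrial scaling 2 in place of 4 at 10000 nM.

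The direct comparison of triptolide with homoharringtonine at matched doses uses no DMSO well, and it was made for the 9 genes other than ACTN2. Over 3 doses, or 27 pairs of gene and dose, 21 were higher with triptolide and 3 lower. From the lowest to the highest dose 7, 6 and 8 of the 9 were higher and 1, 1 and 1 lower, where 29.7%, 27.9% and 41.4% of all genes passed as higher and 35.8%, 38.9% and 47% as lower. MYL9 differed by 1.95 (SE 0.20), 2.58 (SE 0.26) and 2.96 (SE 0.09) on the log2 scale, the most of the 9 genes at 1000 and 10000 nM, with an adjusted p-value of 1.96e-10 at 10000 nM. The difference of ACTN1 was 0.78 (SE 0.20), 1.94 (SE 0.18) and 2.74 (SE 0.09, adjusted p = 2.35e-10). TAGLN, FLNA and ACTN4 differed by 2.34 (SE 0.08), 2.31 (SE 0.09) and 2.27 (SE 0.08) at 10000 nM, and ACTB by 1.89 (SE 0.09). The 3 lower pairs were all of VCL, at -0.44 (SE 0.17, adjusted p = 0.0310, and 0.156 without replicate 1 and 0.0535 without replicate 2), -1.09 (SE 0.14, adjusted p = 0.000230) and -0.79 (SE 0.06, adjusted p = 2.99e-07). All 9 homoharringtonine wells had more VCL than any triptolide well. ACTG1 differed at 10000 nM only, by 0.44 (SE 0.06, adjusted p = 2.92e-05), after 0.10 (SE 0.20, adjusted p = 0.679) and 0.12 (SE 0.13, adjusted p = 0.430). ACTA2 was 2.18 (SE 0.28) higher with triptolide at 100 nM, -0.45 (SE 0.35, adjusted p = 0.277) at 1000 nM and 0.69 (SE 0.19, adjusted p = 0.00509) at 10000 nM. The mitochondrial scaling turned most of the positive values negative, leaving 1 pair higher and 12 lower, and it shifted the median gene of these contrasts by as much as -2.58.

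**Figure D3:**
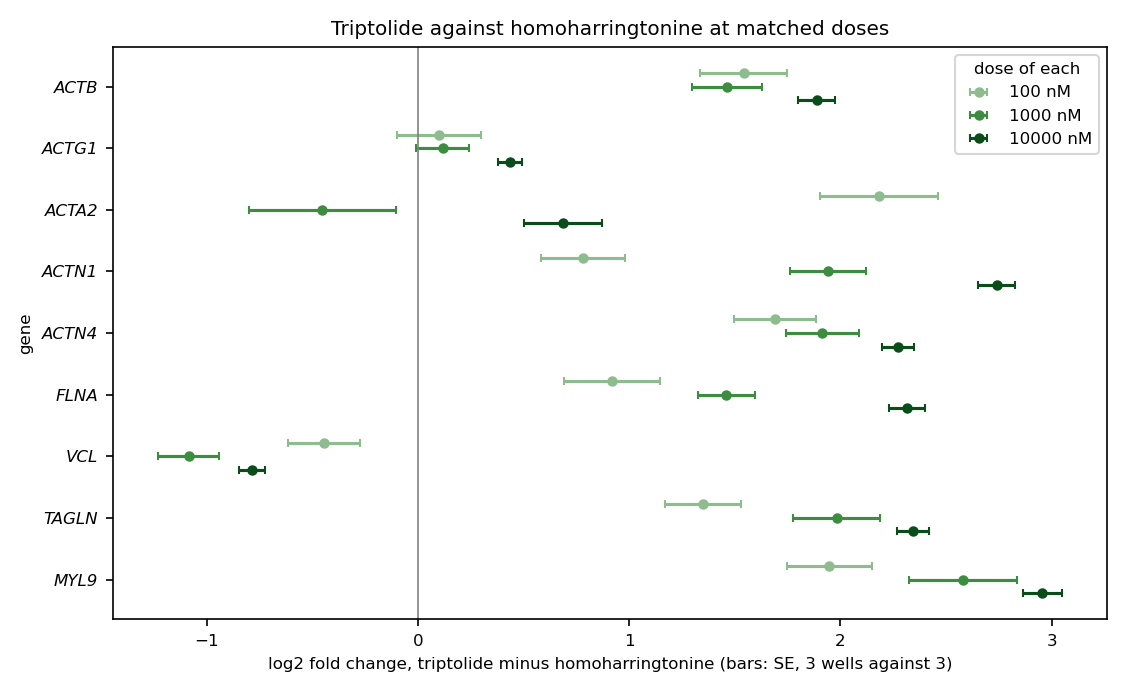
Log2 fold change of triptolide over homoharringtonine at matched doses (points, with bars for the SE, 3 wells against 3) for 9 genes under TMM scaling. VCL lies left of 0 at all doses and MYL9, ACTN1, TAGLN, FLNA, ACTN4 and ACTB lie right of it, which is reversed at 10000 nM under the mitochondrial scaling for ACTB, ACTN4, FLNA and TAGLN.

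Within the 9 homoharringtonine wells, a linear trend in log10 dose was tested for the 9 genes other than ACTN2. ACTN1 fell by 0.81 (SE 0.08, adjusted p = 4.44e-05) on the log2 scale per 10-fold dose, and FLNA fell by 0.65 (SE 0.08, adjusted p = 0.000189). Both kept passing when 1 replicate was left out. ACTA2 fell by 0.36 (SE 0.10, adjusted p = 0.0144), MYL9 by 0.32 (SE 0.10, adjusted p = 0.02005) and TAGLN by 0.27 (SE 0.08, adjusted p = 0.0192), and VCL rose by 0.17 (SE 0.06, adjusted p = 0.0348). These 4 calls were less firm. ACTA2, MYL9 and TAGLN did not pass without replicate 2 (adjusted p = 0.245, 0.190 and 0.165) or without replicate 3 (0.0737, 0.172 and 0.164), and VCL did not pass without any 1 of the replicates (0.0739 to 0.285). Over all genes tested, 21.1% rose and 22.9% fell with dose. ACTB, ACTG1 and ACTN4 had slopes of -0.01 (SE 0.09), -0.06 (SE 0.06) and -0.17 (SE 0.08), none of which passed. ACTN2, described with no test, had a slope of 1.80 (SE 0.18).

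Across the doses of triptolide only ACTA2 passed, with a slope of -1.07 (SE 0.27, adjusted p = 0.0125), where 6.93% of all genes rose and 17.8% fell. Without replicate 1 or without replicate 3 the adjusted p-value was 0.121 and 0.0786. The other 9 genes had slopes between -0.27 and 0.17, and 0 of them passed by edgeR, by DESeq2 or at an unadjusted p-value under 0.05.

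The ratio of the 2 cytoplasmic actins separated both compounds from DMSO. In DMSO wells the log2 ratio of ACTB to ACTG1 in TPM was 1.26 ± 0.10 (SD, n = 18), between 1.09 and 1.47. With triptolide it was 1.79 ± 0.23, 1.83 ± 0.01 and 1.76 ± 0.11 (SD, n = 3) from the lowest to the highest dose, and with homoharringtonine it was 0.19 ± 0.01, 0.48 ± 0.07 and 0.40 ± 0.09. All 9 triptolide wells, of which the lowest had 1.63, lay above all DMSO wells, and all 9 homoharringtonine wells, of which the highest had 0.57, lay below. A ratio within a library does not depend on library scaling, but it shows unequal change of the 2 genes and not which of them moved. It rests on how RSEM divided reads between them. The 2 genes together held 0.98% ± 0.12 of the counts in DMSO wells, 1.25% ± 0.03 with 10000 nM triptolide and 0.66% ± 0.06 with 10000 nM homoharringtonine. For the other compounds the group means of the ratio lay between 1.14, with 10000 nM pyrazolanthrone, and 1.55, with 100 nM nilotinib. Their single wells reached down to 1.06, with 10000 nM pyrazolanthrone. They reached up to 1.75 with 100 nM nilotinib, 1.66 with 1000 nM MK-2206 and 1.64 with 100 nM pyrazolanthrone, so some overlapped with triptolide wells.

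**Figure D4:**
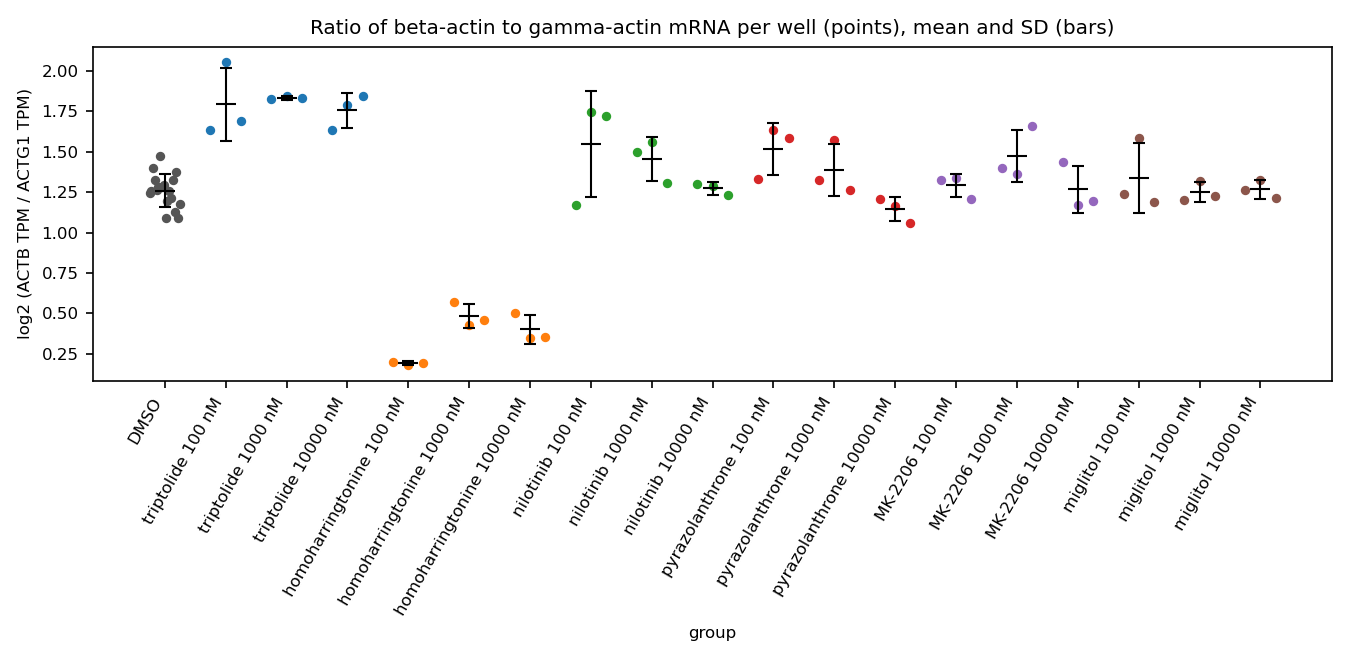
Log2 ratio of ACTB to ACTG1 in TPM in each well (points) of the 19 groups, with the mean and SD (bars). Triptolide wells lie at 1.63 or more and homoharringtonine wells at 0.57 or less, on either side of the DMSO wells at 1.09 to 1.47. Some wells with nilotinib, MK-2206 or pyrazolanthrone also lie above 1.63.

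With the kinase inhibitors the changes were few and small. At 100 nM nilotinib, an inhibitor of the BCR-ABL kinase, 2 genes rose and 0 fell, where 5.5% of all genes rose and 3.58% fell. ACTN1 had 1335, 1938 and 1819 CPM, all above the DMSO wells, a log2 fold change of 0.69 (SE 0.11, adjusted p = 0.000266). FLNA had 4185, 6108 and 5366 CPM, of which the first lay among the DMSO wells, a log2 fold change of 0.38 (SE 0.11, adjusted p = 0.0291). At 1000 nM, where 2.51% of genes rose and 1.44% fell, ACTN1 was the only one to pass, at 1282, 1697 and 1254 CPM, with 0.42 (SE 0.12, adjusted p = 0.0379). At 10000 nM, where 7.97% rose and 6.39% fell, 0 rose, also by DESeq2 or at an unadjusted p-value under 0.05, and 3 fell: ACTG1 by 0.27 (SE 0.08, adjusted p = 0.0321), ACTN4 by 0.39 (SE 0.11, adjusted p = 0.0202) and MYL9 by 0.44 (SE 0.15, adjusted p = 0.0492). ACTN4 had 336, 346 and 349 CPM, below all DMSO wells, while ACTG1 (1650, 1839 and 1861 CPM) and MYL9 (67.0, 73.9 and 77.8 CPM) overlapped with them. These 3 calls were each lost in all 3 fits that left out 1 well (adjusted p = 0.0514 to 0.288), whereas that of ACTN1 at 100 nM had an adjusted p-value of at most 0.0159 in those fits, but of 0.410 against DMSO replicates 1 to 3 alone. FLNA at 100 nM did not pass without replicate 2 (0.401) or 3 (0.212), and ACTN1 at 1000 nM did not pass without replicate 1 (0.0817) or 2 (0.230). Without replicate 1, ACTB, ACTN4, MYL9, TAGLN and VCL also passed at 100 nM, with log2 fold changes from 0.28 to 0.56.

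Pyrazolanthrone, an inhibitor of the JNK kinases, gave a call for ACTN1 at 100 nM, with 1372, 1466 and 1535 CPM and a log2 fold change of 0.51 (SE 0.10, adjusted p = 0.00688), where 3.2% of all genes rose and 1.56% fell. It did not pass without replicate 2 (0.0950) or 3 (0.104), and MYL9 rose too without replicate 1, by 0.58 (0.0449). At 1000 nM no gene passed, as over all genes (0% in each direction), and 0 of the 10 passed by DESeq2. An unadjusted p-value under 0.05 was found for 1 of the 10, and for 1033 of all 18469 genes tested. At 10000 nM, where 3.35% rose and 4.3% fell, ACTA2 rose by 0.85 (SE 0.22, adjusted p = 0.0160), with 3.77, 3.27 and 3.64 CPM, all above the DMSO wells. MYL9 fell by 0.53 (SE 0.15, adjusted p = 0.0283) to 66.8, 73.7 and 70.6 CPM, and TAGLN fell by 0.51 (SE 0.15, adjusted p = 0.0319) to 63.0, 70.3 and 62.7 CPM. The 3 calls at 10000 nM were lost in each fit that left out 1 well (adjusted p = 0.0733 to 0.184). Across doses, where 8.88% of all genes rose and 9.74% fell, ACTA2 rose by 0.61 (SE 0.16, adjusted p = 0.0310) per 10-fold dose, and 5 genes fell: ACTN1 by 0.30, ACTN4 by 0.34, MYL9 by 0.48, TAGLN by 0.39 and ACTB by 0.23 (adjusted p = 0.0179 to 0.0431). None of these 6 trends passed without replicate 2 or without replicate 3 (adjusted p = 0.142 to 0.218), and FLNA fell too without replicate 1, by 0.26.

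MK-2206, an inhibitor of the AKT kinases, and miglitol gave no call against the 18 DMSO wells by edgeR. With MK-2206 the fold changes lay between -0.28 and 0.79, the highest being ACTN2 at 10000 nM, which averaged 1.07 CPM. At an unadjusted p-value under 0.05 there were 1, 2 and 2 genes above DMSO and 0, 0 and 1 below, from the lowest to the highest dose, and DESeq2 called 0, 2 and 1 above and 0, 0 and 1 below. Of all genes, 0.0594%, 1.2% and 2.21% rose and 0.0054%, 0.318% and 0.948% fell at an adjusted p-value under 0.05. At an unadjusted one, 1376 of 18530, 2051 of 18526 and 2338 of 18575 genes differed in either direction. With miglitol the fold changes lay between -0.42 and 0.38, with 1, 2 and 0 genes above and 0, 0 and 4 below at an unadjusted p-value under 0.05 and 0 by DESeq2. Of all genes tested, 944 of 18496, 1563 of 18477 and 4195 of 18519 had an unadjusted p-value under 0.05 in either direction. After adjustment 0% of all genes passed at each dose. The choice of controls mattered here: against DMSO replicates 1 to 3 alone, 7 genes were lower with 10000 nM miglitol, from ACTG1 at -0.28 (adjusted p = 0.0459) to MYL9 at -0.60 (adjusted p = 0.00788). The share of all genes was not counted for this fit, so the 7 are not read as particular to these genes. Against these 3 wells nilotinib and pyrazolanthrone raised 0 genes at any dose. ACTN1 in wells with 1000 nM miglitol had 1132, 1614 and 1345 CPM, a log2 fold change of 0.38 (SE 0.11, adjusted p = 0.242), beside the 0.42 at 1000 nM nilotinib that passed. These comparisons share the 18 DMSO wells. Over the doses of miglitol, TAGLN had a slope of -0.31 (SE 0.09, adjusted p = 0.0365), lost without replicate 1, 2 or 3 (0.0679, 0.0819 and 0.207), where 12.7% of all genes rose and 3.21% fell. No trend passed with nilotinib (2.11% of genes rose and 0.979% fell) or MK-2206 (0.028% and 0%). At an unadjusted p-value under 0.05 there were 1 rising and 7 falling genes with nilotinib, and 0 of either with MK-2206, and DESeq2 called 1 rising and 4 falling genes with nilotinib and 0 with MK-2206. Of all genes tested, 4568 of 17778 with nilotinib and 1583 of 17880 with MK-2206 had a trend at an unadjusted p-value under 0.05. Without replicate 1 of nilotinib, ACTN1, ACTN4, FLNA and MYL9 fell with dose, by 0.37 to 0.46 (adjusted p = 0.0421 to 0.0457).

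RSEM's effective length of a gene, an average over its isoforms weighted by their estimated share, gave a measure of isoform use that the choice of genes did not use. It also moves with the fragment length of a library. The median shift over well-counted genes was -14.0 to 29.9 bases in DMSO wells. It was 21.3, 21.0 and 13.5 bases with 100 nM pyrazolanthrone, and 20.3, 17.1 and -1.14 with 10000 nM nilotinib. Its part in the differences below was not tested. Among 149 pairs of gene and comparison with at least 100 counts per well, 0 differed from DMSO at an adjusted p-value under 0.05 and 14 at an unadjusted one (exact permutation test, two-sided, Benjamini-Hochberg over the pairs). With 3 wells against 18 the smallest p this test can give is 0.0015, which over 149 pairs becomes 0.224 for a pair on its own, so a single pair could not pass. The lowest adjusted p-value was 0.224, shared by MYL9 with 100 nM pyrazolanthrone, whose effective length was 1447 ± 11.5 bases (SD, n = 3) against 1681 ± 123 (SD, n = 17) in DMSO wells with an unadjusted exact p = 0.00175, and by ACTN1 with 10000 nM nilotinib, with 3520 ± 10.7 against 3426 ± 96.0 and an unadjusted exact p = 0.00301.

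SRF and its coactivators were measured beside their target genes. With 10000 nM triptolide, MRTFA had 7.70 CPM ± 0.43 (SD, n = 3) against 97.0 ± 13.5 in the 18 DMSO wells, a log2 fold change of -3.69 (SE 0.17, adjusted p = 9.09e-16). MRTFB went from 67.9 CPM ± 10.5 to 7.14 ± 0.39, by -3.30 (SE 0.15, adjusted p = 1.56e-15). SRF fell less, from 81.8 CPM ± 8.64 to 65.3 ± 4.96, by -0.37 (SE 0.11, adjusted p = 0.00317). Of the 7 genes for SRF and its cofactors 2 rose, the ternary complex factors ELK3 by 1.08 (SE 0.09) and ELK1 by 0.59 (SE 0.10), and 4 fell (2 by DESeq2), where 32.2% of all genes rose and 39.7% fell. Under the mitochondrial scaling, with the median of all genes tested at -2.93, 0 rose and all 7 fell. With 10000 nM homoharringtonine, described with no test, MRTFA was at 170 CPM ± 3.28 with a log2 fold change of 0.79 (SE 0.11), MRTFB at 15.04 ± 2.43 with -2.22 (SE 0.15), ELK3 at 19.5 ± 1.96 with -2.62 (SE 0.13), ELK4 at 81.6 ± 10.1 with 0.73 (SE 0.16), and SRF at 84.7 ± 4.97 with 0.02 (SE 0.10).

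Of 40 further actin-binding and contractile genes, 38 were tested with 10000 nM triptolide, and 30 rose and 2 fell, where 32.2% of all genes rose and 39.7% fell, with a median log2 fold change of 1.05 beside -0.17 over all genes tested. The direction flips with the scaling: 0 rose and all 38 fell under the mitochondrial scaling, and 24 rose and 6 fell under library sizes only. The median of all genes tested was -2.93 and -0.70 under these 2 scalings. TMSB4X, a thymosin that binds actin monomers, rose by 1.93 (SE 0.23, adjusted p = 7.01e-08), from 173 CPM ± 60.5 to 683 ± 148. CNN1, a calponin of smooth muscle, rose by 1.84 (SE 0.13, adjusted p = 7.34e-12), from 9.77 CPM ± 1.81 to 36.5 ± 4.18, and FHL2, a LIM domain cofactor, fell by 0.40 (SE 0.12, adjusted p = 0.00555). With 10000 nM homoharringtonine, as a description, 10 of 39 genes were above DMSO and 20 below past the edgeR threshold, where 36.7% and 37.2% of all genes were, with a median of -0.36 beside -0.05 over all genes. There PDLIM5, a binder of alpha-actinin, was 2.10 (SE 0.09) higher and CNN1 1.21 (SE 0.13) higher, and the adhesion protein PXN had -2.10 (SE 0.12) and the nonmuscle myosin MYH10 had -1.59 (SE 0.10).

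Of 8 other actins and actin-related genes, 4 rose and 0 fell with 10000 nM triptolide by edgeR, where 32.2% of all genes rose and 39.7% fell, with 0 below DMSO at an unadjusted p under 0.05 and 0 by DESeq2. They were led by ACTR1B of the dynactin complex at 1.63 (SE 0.11, adjusted p = 2.84e-12) and ACTR2 of the ARP2/3 complex at 0.69 (SE 0.19, adjusted p = 0.00238). With 10000 nM homoharringtonine 3 of the 8 were above DMSO past the threshold, near the 36.7% of all genes, of which ACTL6A, a subunit of chromatin remodelers, had 0.58 (SE 0.24). Because ACTN2 belongs to the sarcomere, 26 sarcomere and muscle genes were read beside it. With 10000 nM homoharringtonine 15 were tested, 8 were above DMSO and 4 below past the threshold, beside 36.7% and 37.2% of all genes, and each of the 8 averaged under 5 CPM. The filter was applied in each comparison, so a gene low in DMSO wells could be among the 15 because of the treated wells. That favours genes above DMSO, and nothing is read from the 8. Among those below DMSO, TNNT1, a troponin, had 39.3 CPM ± 2.98 (SD, n = 3) against 91.1 ± 16.1 (SD, n = 18). The muscle regulators MYOD1 and MYOG stayed under 0.21 CPM in each of these wells. With 10000 nM triptolide 6 of 11 tested genes rose and 0 fell by edgeR, beside the 32.2% and 39.7% of all genes, with 0 below DMSO at an unadjusted p under 0.05 and 0 by DESeq2. They were led by the light chain MYL2 at 1.71 (SE 0.12, adjusted p = 1.94e-12), from 4.30 CPM ± 0.63 to 14.7 ± 1.03, and the troponin TNNC1 at 1.70 (SE 0.13, adjusted p = 2.08e-11). These directions with triptolide, like those of the 10 genes, are relative to most genes, as TMM sets them. Under the mitochondrial scaling 0 genes of either list rose, and all 8 of these actins and all 11 tested sarcomere genes fell. Under library sizes only, 2 of the actins rose and 2 fell, and 4 of the sarcomere genes rose and 4 fell.

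The genes whose pattern over the 19 group means of log2(CPM + 1) was most like that of ACTN2 were EGR4, an immediate-early transcription factor (Pearson's r = 0.995), SMPD3, a sphingomyelinase (r = 0.993), and MAK, a kinase (r = 0.991), among 11835 protein-coding genes with at least 5 CPM in 1 group. All 3 were under 5 CPM in DMSO and triptolide wells. Homoharringtonine wells, where ACTN2 was chosen, could thus admit a gene, and nothing is read from these high r values. EGR4 went from 3.97 CPM in DMSO wells to 26.1, 326 and 544 CPM with homoharringtonine, while it had 0.21 CPM or less at 100 and 10000 nM triptolide and 0.34 CPM at 1000 nM. SMPD3 had 1.26 CPM in DMSO wells and 22.9 CPM at 10000 nM homoharringtonine. Among the other 9 genes described here, VCL was most like ACTN2 (r = 0.936) and ACTN1 was most opposite (r = -0.931). For ACTB the most similar were MBOAT7 (r = 0.983), MCAM, a cell adhesion molecule (r = 0.980), and GNAI2, a G protein subunit (r = 0.979). MCAM had 287 CPM in DMSO wells, 123 CPM at 10000 nM homoharringtonine and 917 CPM at 10000 nM triptolide. Among the 9, MYL9 (r = 0.964) and ACTN4 (r = 0.948) were closest to ACTB, and ACTG1 reached r = 0.487. These correlations rest on groups of which the homoharringtonine and triptolide ones hold most of the spread, and they are a description.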

How the data were processed

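Population RNA-seq of 72 wells of U2OS cells was analysed, grouped by compound and dose as the sample labels give them. The labels give the middle dose as 1000 nM, which was used here, while the study's methods state another value for it, so groups named 1000 nM and the dose trends rest on the labels. Per the labels, poly(A) RNA was made into TruSeq Stranded libraries, and the submitters' processing notes name GRCh38, RSEM, HTSeq and DESeq2 without versions. The deposited expected counts are the authors' RSEM estimates of reads per gene, not normalized, which were rounded to whole numbers. TPM, as deposited, come from the same RSEM run of the authors and adjust counts for gene length and library total. The effective lengths in the files are RSEM's own. 

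Differences came from edgeR 4.0.16 in R 4.3.3: TMM scaling, filterByExpr at its smallest count of 10, glmQLFit, then glmQLFTest, with Benjamini-Hochberg adjustment. The 3 wells of every compound at every dose were set against all 18 DMSO wells, triptolide was set against homoharringtonine dose by dose, and a linear term in log10 dose was fitted over the 9 wells of a compound. DESeq2 1.42.0, 3 other scalings, 2 other filters, fits without the libraries under 10000000 counts, without each replicate and with a replicate block, and a fit with ACTB and ACTG1 summed were alternatives. Symbols came from GENCODE release 44 of GRCh38, which held 56104 of the 60371 identifiers and all 10 genes, and promoters from RefSeq. Shared 50-base stretches were counted over GENCODE transcripts. Exact permutation tests used scipy 1.17.1 under Python 3.11.15. For 10000 nM triptolide, counts of 17117 genes were simulated with a log2 change of 2 put into 200. The test found 199 of these 200 genes beside 8 others. In the measured wells at this dose 32.2% of all genes rose and 39.7% fell. Recovery at such shares, or under the mitochondrial scaling, was not tested. PCR reads carry no molecular identifiers, so the limits that a count of 0 allows, taken as 3 counts, cover counting error only.

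The 10 genes and the companion lists were chosen with earlier results of these data known. Named genes are the 10, SRF, MRTFA and MRTFB, from each list the 2 largest rises and 2 largest falls called at 10000 nM of triptolide or homoharringtonine with at least 5 CPM in either group, and the 3 protein-coding genes most correlated with ACTN2 and ACTB. Neighbouring and overlapping genes, MYOD1 and MYOG were named beyond this rule, after their values were seen.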

Additional observations from a re-analysis of the deposited data

How the results depend on the processing

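The counts of calls below are pairs of gene and dose of at most 30 against DMSO, genes of at most 10 in a dose trend, and pairs of at most 27 between triptolide and homoharringtonine, with the edgeR value under TMM first. Shares of all genes called are given only for the edgeR fits under TMM, so the counts under the alternatives have none beside them. For triptolide 26 pairs were raised, with 17 under library sizes only and 1 under the mitochondrial scaling, and 0 were lowered, with 22 under the mitochondrial scaling and 2 with at least 10 counts required in every well. For homoharringtonine, as a description with ACTN2 among them at each dose, 8 were above DMSO, with 4 under the filter of 10 counts, and 14 below, with 8 under the mitochondrial scaling. Nilotinib raised 3, with 5 by DESeq2 and 1 under each of library sizes only, the mitochondrial scaling and no filter, and lowered 3, with 7 under the mitochondrial scaling and 1 with no filter or with 10 counts in every well. Pyrazolanthrone raised 2, with 0 under the mitochondrial scaling and 1 under the filter of 10 counts, and lowered 2, with 0 and, with no filter, 1. MK-2206 raised and lowered 0, with 3 raised and 1 lowered by DESeq2, 1 lowered under library sizes only, and 1 of each without the shallow libraries. The triptolide trend lowered 1 gene, with 10 under the mitochondrial scaling and 0 under the filter of 10 counts. The homoharringtonine trend raised 1, with 0 under the mitochondrial scaling or no filter, and lowered 5, with 2 under library sizes only and 2 under the mitochondrial scaling. The nilotinib trend moved 0, with 1 raised and 4 lowered by DESeq2, 2 lowered under RLE size factors and 9 under the mitochondrial scaling. The pyrazolanthrone trend raised 1, with 0 under the mitochondrial scaling. The miglitol trend lowered 1, with 4 by DESeq2, 9 under the mitochondrial scaling, 3 with no filter and 2 under the filter of 10 counts. Between triptolide and homoharringtonine 21 pairs were higher and 3 lower, with 1 and 12 under the mitochondrial scaling and 5 lower under the filter of 10 counts. The filter of 10 counts in every well left fewer genes, because the shallow wells had to pass it too. The scalings of the companion lists were chosen after seeing the data, and all list counts are at 10000 nM. For SRF and its cofactors, triptolide raised 2 (1 under library sizes only, 0 under the mitochondrial scaling) and lowered 4 (2 by DESeq2 or under RLE size factors, 7 under the mitochondrial scaling), and 2 were above DMSO with homoharringtonine (1 under the mitochondrial scaling). Of the other actins, triptolide raised 4 (2 under library sizes only, 0 under the mitochondrial scaling) and lowered 0 (2 and 8), and 0 were below DMSO with homoharringtonine (1 without the shallow libraries or under library sizes only). Of the actin-binding genes, triptolide raised 30 (0 under the mitochondrial scaling) and lowered 2 (1 by DESeq2 or under RLE size factors, 6 under library sizes only, 38 under the mitochondrial scaling), and 10 were above DMSO with homoharringtonine (6 under the mitochondrial scaling). Of the sarcomere genes, triptolide raised 6 (0 under the mitochondrial scaling) and lowered 0 (1 without the shallow libraries, 4 under library sizes only, 11 under the mitochondrial scaling). The other causes were not tested.

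Signs of single genes also moved with the scaling. Under the mitochondrial scaling at 100 nM triptolide, ACTB was at -0.87, ACTG1 at -1.34, ACTN1 at -1.37, ACTN2 at -0.54, ACTN4 at -0.35, FLNA at -0.48, MYL9 at -0.58, TAGLN at -0.11 and VCL at -1.03. At 1000 nM, ACTA2 was at -2.45, ACTB at -1.47, ACTG1 at -2.01, ACTN1 at -1.86, ACTN2 at -1.52, ACTN4 at -0.99, FLNA at -1.31, MYL9 at -0.72, TAGLN at -0.26 and VCL at -2.06. At 10000 nM, ACTA2 was at -2.09, ACTB at -1.81, ACTG1 at -2.37, ACTN1 at -2.25, ACTN2 at -2.05, ACTN4 at -1.35, FLNA at -1.63, MYL9 at -1.29, TAGLN at -0.78 and VCL at -2.23. For triptolide against homoharringtonine at 10000 nM, ACTA2 was at -1.88, ACTB at -0.70, ACTG1 at -2.15, ACTN4 at -0.31, FLNA at -0.26 and TAGLN at -0.24. Under library sizes only, VCL was at -0.055 with 1000 nM triptolide, and ACTG1 at -0.11 with 10000 nM triptolide and at -0.15 against homoharringtonine. Under the filter of 10 counts at 100 nM triptolide, ACTG1 was at -0.42, ACTN1 at -0.44 and VCL at -0.12. ACTB and ACTG1 summed stood at -0.50, -0.24 and -0.54 with homoharringtonine, where ACTG1 alone was above 0. As log2 ratios of mean levels to DMSO, going from CPM to TPM took the 10000 nM triptolide value of ACTA2 from 0.82 to 0.061, ACTB from 1.06 to 0.20, ACTN4 to 0.69, FLNA from 1.21 to 0.51, MYL9 from 1.59 to 0.77, TAGLN from 2.09 to 1.31, ACTG1 from 0.47 to -0.29, ACTN1 from 0.60 to -0.22 and VCL from 0.61 to -0.26. The DMSO mean of ACTN2 rests on DMSO replicate 10, where it had 4 counts: its triptolide value went from 0.13 to -1.64, but from 0.81 to -0.38 without the shallow libraries, and its homoharringtonine value from 7.28 to 6.29, but from 7.95 to 7.54 without them, an alternative chosen after seeing the data. For homoharringtonine going to TPM took ACTN4 from -0.70 to -0.64, TAGLN from -0.18 to -0.090, VCL from 1.46 to 1.38 and ACTG1 from 0.11 to 0.054.

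Replicate numbers did not pair the wells: the correlation of deviations between treated and DMSO wells of the same number averaged -0.066, and 0.021 for different numbers. The replicate block against DMSO kept only DMSO replicates 1 to 3. With the replicate block, nilotinib raised 0 and lowered 6 pairs, pyrazolanthrone raised 0 and lowered 5, miglitol lowered 7 in place of 0, the triptolide trend lowered 0, the homoharringtonine trend raised 0, the nilotinib trend lowered 5 and the miglitol trend lowered 2. With the same 3 DMSO wells and no block, an alternative added after seeing the data, nilotinib raised 0 and lowered 4, pyrazolanthrone raised 0 and lowered 6 and miglitol lowered 7, so most of these moves against DMSO came with the choice of DMSO wells. Leaving out each replicate in turn gave 24 to 28 raised pairs for triptolide, with ACTN2 counted where called, and, as a description that includes ACTN2, 7 to 9 above and 11 to 13 below for homoharringtonine. It gave 1 to 7 raised and 0 lowered for nilotinib, 0 to 2 raised and 0 lowered for pyrazolanthrone, and 21 higher and 2 to 3 lower between triptolide and homoharringtonine. In the trends it gave 0 to 1 lowered for triptolide, 0 raised and 2 to 5 lowered for homoharringtonine, 0 to 4 lowered for nilotinib, 0 to 1 raised and 0 to 6 lowered for pyrazolanthrone and 0 lowered for miglitol. Depth limits ACTA2 and ACTN2 outside homoharringtonine, since 3 counts stand for 36.1 CPM in the shallowest well.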
